A study of Mus musculus with 6 samples.

Results

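The genes described here encode the kinetochore, the spindle assembly checkpoint and their mitotic partners, 51 genes of the 24391 in a count table from Neuro2a cells, a mouse neuroblastoma line. They are the 19 rows whose symbol has the form of a centromere protein gene (Cenp followed by letters and at most 1 digit) and 32 listed symbols, all of which were found. The rule uses no measured value, although the set was put together with earlier results of these data known, and all 51 passed the filter on low counts, which kept 13366 genes. The 3 control libraries came from cells given vehicle and the 3 treated libraries from cells given 5 mM D-serine, the mirror-image form of L-serine. In both groups the cells were grown in D-MEM with 10% fetal bovine serum, and then kept for 18 h in a medium the labels call D-MEM(-SG), again with 10% serum. All cells were of 1 line, and the labels do not say whether the numbered libraries of a group came from separate cultures, so p-values measure the spread between these libraries.

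Centromeric chromatin is marked by the histone H3 variant CENP-A, on which a constitutive set of CENP proteins, the inner kinetochore, is assembled. The NDC80 complex sits on that base and binds microtubules. Kinetochores without microtubules activate the checkpoint proteins MAD and BUB, which hold back CDC20 and so the anaphase-promoting complex until every chromosome is attached. In dividing cells many of these genes are transcribed late in the cell cycle, through promoters with a CHR element and CCAAT boxes, and others earlier, through E2F sites.

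Total counts per library lay between 32518483 and 40024265, and the lowest count of any member in any library was 277, in Cenpl. D-serine replicate 1 stood apart from its fellows. Its counts differed from D-serine replicates 2 and 3 by chi-square values of 17.7 and 13.9 per degree of freedom, against at most 6.54 for any other pair within a group, and it gave fewer counts to long genes. The slope of its log2 CPM (counts scaled to the library size) on log2 exonic length, relative to the 6-library mean of each gene, was -0.072. The slope was 0.0058 and -0.0040 in D-serine replicates 2 and 3, and 0.036, 0.019 and 0.015 in the control libraries. Every control slope thus lay above every D-serine slope. The sympathoadrenal markers fixed for Neuro2a cells summed to between 2772 and 2885 CPM under vehicle and between 2922 and 3106 CPM under D-serine, and 12 of the 17 exceeded a mean of 10 CPM, among them Hand2. Nefl and Nefm were among those at or near 0. Fibroblast markers (6 genes, 2 of them at 0 in every library) summed to at most 6.90 CPM, and markers of glia and macrophages (8 genes, 1 at 0) to at most 17.1 CPM, most of it Mbp.

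Cenph, Cenpm and Cenpb, all in the inner kinetochore list, rose with D-serine in the edgeR fit, in which no member passed the threshold as lower. That list was filled by symbol, with the 15 CENP genes other than Cenpe, Cenpf, Cenpj and Cenpv. In the edgeR quasi-likelihood test, fitted on the whole table with Benjamini-Hochberg adjustment, Cenph, Cenpm and Cenpb had an adjusted p under 0.05. They are 3 of 51 members, or 5.88%, where 9.74% of all tested genes passed (4.84% as higher and 4.9% as lower). The count is therefore no larger than the table's background. At an unadjusted p under 0.05 there were 6 of the 51 members higher and 14 of the 51 lower, against 13.8% and 14.4% of all genes. There was no overlap between groups for 8 of the 51 that were higher and 15 of the 51 that were lower, against 16.2% and 16.6% of all genes. By both counts the lower share was larger in the members than in all genes, and the higher share was not. In either direction, 45.1% of members and 32.9% of all tested genes did not overlap. Whether these shares differ was not tested. The median log2 fold change was -0.048 over the members and 0.0053 over all tested genes. It was 0.039 over the 19 CENP genes and -0.062 over the other 32, of which 8 had a positive and 24 a negative value. Whether these medians differ was not tested. With 1 library left out, the members past the threshold numbered 1 when it was control replicate 1 or 2 (Cenph each time, with 0.921% and 0.501% of all genes), 2 when it was control replicate 3 or D-serine replicate 3 (Cenph and Cenpb, with 3.34% and 2.15%), 5 when it was D-serine replicate 2 (with 11.6%) and 9 when it was D-serine replicate 1 (with 12.5%). The 5 were the same 3 genes with Cenpf and Mki67 lower, and the 9 the same 3 with Bub1b, Mad1l1, Ttk, Cdca8, Tpx2 and Nusap1 lower. Over all genes, 647 were higher and 655 lower, but 914 and 412 under upper quartile scaling and 944 and 412 with library totals.

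**Figure D1:**
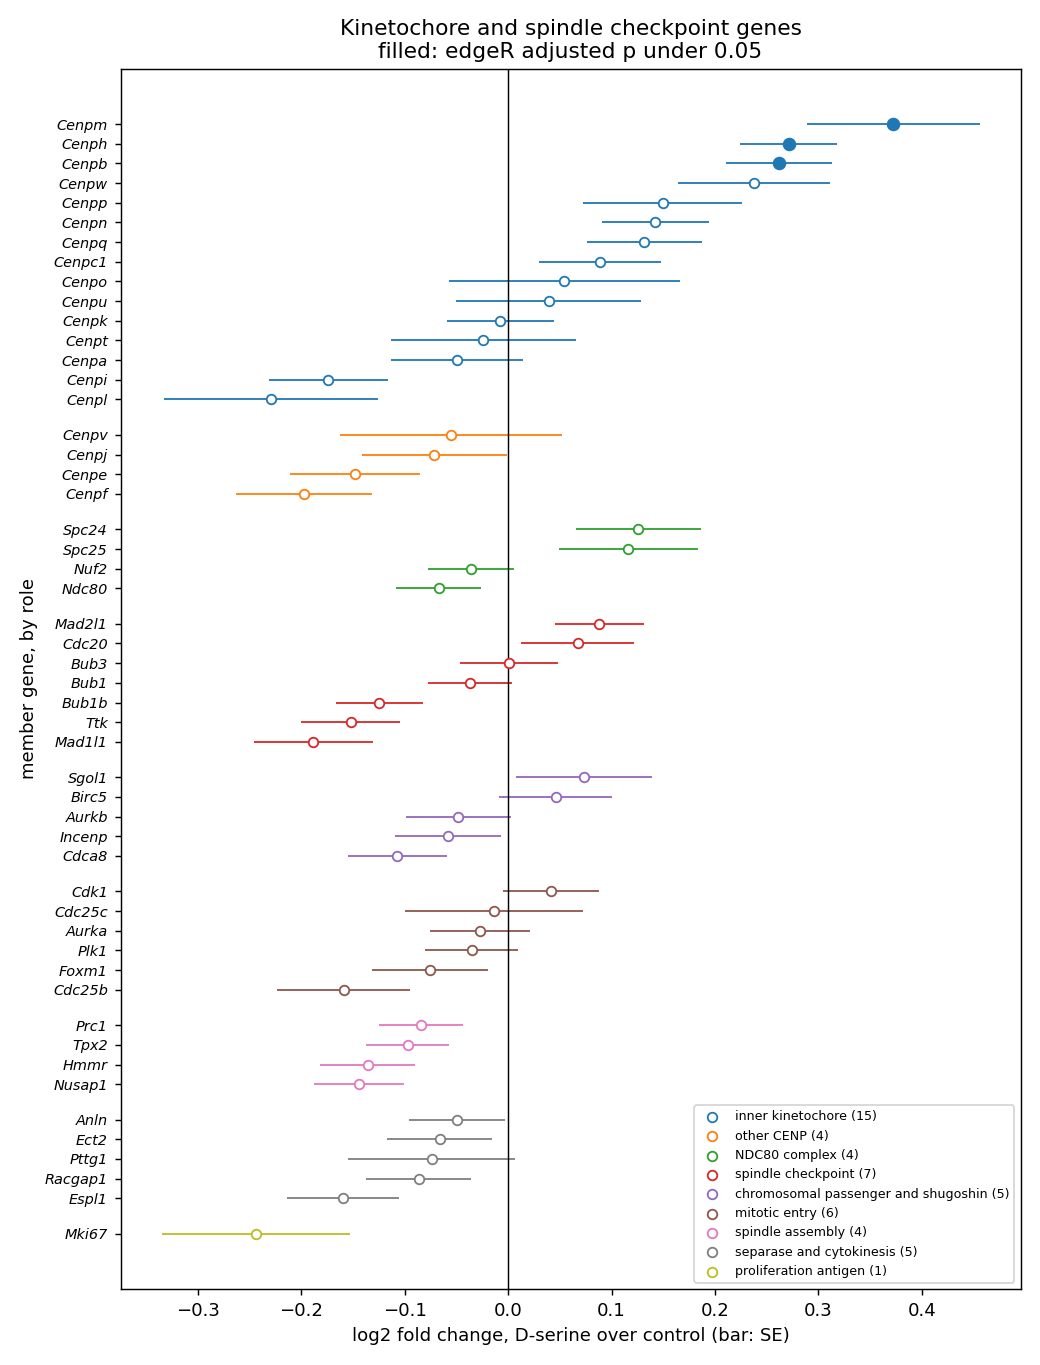
Log2 fold change of D-serine over control (x axis) for the 51 members, grouped by role, with bars of 1 SE from the edgeR fit on 3 libraries a group. Filled points mark an adjusted p under 0.05, and the 3 filled points, Cenpm, Cenph and Cenpb, are the highest values in the plot.

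Cenph encodes a subunit of the CENP-H/I/K/M complex of the inner kinetochore. It gave 68.0, 70.3 and 66.5 CPM in the vehicle libraries, in order of their number, and 81.8, 81.8 and 83.5 CPM in the D-serine libraries. Every D-serine library lay above every control library, and the gap between the groups was wider than the range within either. The mean rose from 68.3 ± 1.92 to 82.4 ± 0.942 CPM (SD, n = 3 each), by 20.7% (log2 fold change 0.27, SE 0.0468, edgeR adjusted p = 0.0086). Cenph remained past the threshold in each of the 6 fits that left out 1 library, with adjusted p-values up to 0.0491.

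Cenpm encodes a further subunit of the same complex, whose fold resembles that of a small GTPase. Its level was 22.2, 28.2 and 26.5 CPM in the control libraries and 35.5, 32.3 and 32.02 CPM in the D-serine libraries. The groups did not overlap, but control replicate 1 was the lowest and D-serine replicate 1 the highest library. The mean rose from 25.7 ± 3.10 to 33.3 ± 1.93 CPM (SD, n = 3 each), by 29.5% (log2 fold change 0.37, SE 0.0835, edgeR adjusted p = 0.0190). The call was lost without any 1 of the control replicates or D-serine replicate 3, with adjusted p-values between 0.0501 and 0.0757 in the edgeR fit. The log2 fold change was 0.28 in the fit that left out control replicate 1 and between 0.40 and 0.45 in the other 3 of these fits.

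Cenpb encodes the protein that binds the CENP-B box of centromeric satellite DNA. It gave 46.3, 44.4 and 44.8 CPM under vehicle and 52.7, 56.0 and 53.8 CPM under D-serine. Again all D-serine libraries were above all control libraries. The mean rose from 45.2 ± 0.974 to 54.2 ± 1.67 CPM (SD, n = 3 each), by 19.9% (log2 fold change 0.26, SE 0.0515, edgeR adjusted p = 0.0127). The call was lost when control replicate 1 (edgeR adjusted p = 0.0544) or 2 (0.0691) was left out.

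As deposited, Cenph lies on chromosome 13 from 101529641 to 101545854, Cenpm on chromosome 15 from 82064206 to 82075177 and Cenpb on chromosome 2 from 131003025 to 131005748, all on the minus strand. The submitters' processing notes name GRCm38, but none of the 51 members has the same start in RefSeq's GRCm38 annotation, so these positions belong to a build that was not identified. The exons counted for these 3 genes overlap those of no other gene in the table.

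The other 12 inner kinetochore genes did not pass the threshold. Cenpw, whose product pairs with CENP-T in a histone-fold complex, came closest among those with a positive value, at 16.6, 17.2 and 18.8 CPM under vehicle and 21.4, 20.3 and 20.5 CPM under D-serine (log2 fold change 0.24, edgeR adjusted p = 0.0575). Its groups did not overlap, and upper quartile scaling (adjusted p = 0.0402) or library totals (0.0378) put it past the threshold. Cenpw was called in 3 of 17 alternative fits. It was called in none of the edgeR fits with 1 library left out (adjusted p from 0.0644 to 0.194). With the trend on exonic length removed its log2 fold change was 0.18 (edgeR adjusted p = 0.0929). Cenpi, which encodes another subunit of the H/I/K/M complex, had the opposite sign, at 39.1, 37.9 and 36.7 CPM under vehicle and 32.6, 34.9 and 33.3 CPM under D-serine (log2 fold change -0.17, adjusted p = 0.0719). Cenpl, the partner of CENP-N, had a log2 fold change of -0.23 (adjusted p = 0.166). Cenpa itself was at 29.6 ± 1.24 CPM under vehicle and 28.6 ± 1.32 CPM under D-serine (SD, n = 3 each), a difference within the spread of the libraries. In edgeR, 6 of the 15 inner kinetochore genes were higher and 2 lower at an unadjusted p under 0.05, against 13.8% and 14.4% of all genes. The 6 were Cenph, Cenpm, Cenpb, Cenpw, Cenpn and Cenpq, and the 2 were Cenpi and Cenpl. The same 8 genes had no overlap between groups, against 16.2% of all genes as higher and 16.6% as lower. Whether these shares differ was not tested. Of the 15 inner kinetochore genes 10 had a positive and 5 a negative value, with a median log2 fold change of 0.089. Their median exonic length was 1768 bases. Of all tested genes under 2000 bases, 67.1% had a positive value, with a median of 0.069. With each library's trend on exonic length removed, the median of the 15 inner kinetochore genes was 0.070, against 0.0040 over all tested genes. The part of length in their values was not tested.

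**Figure D2:**
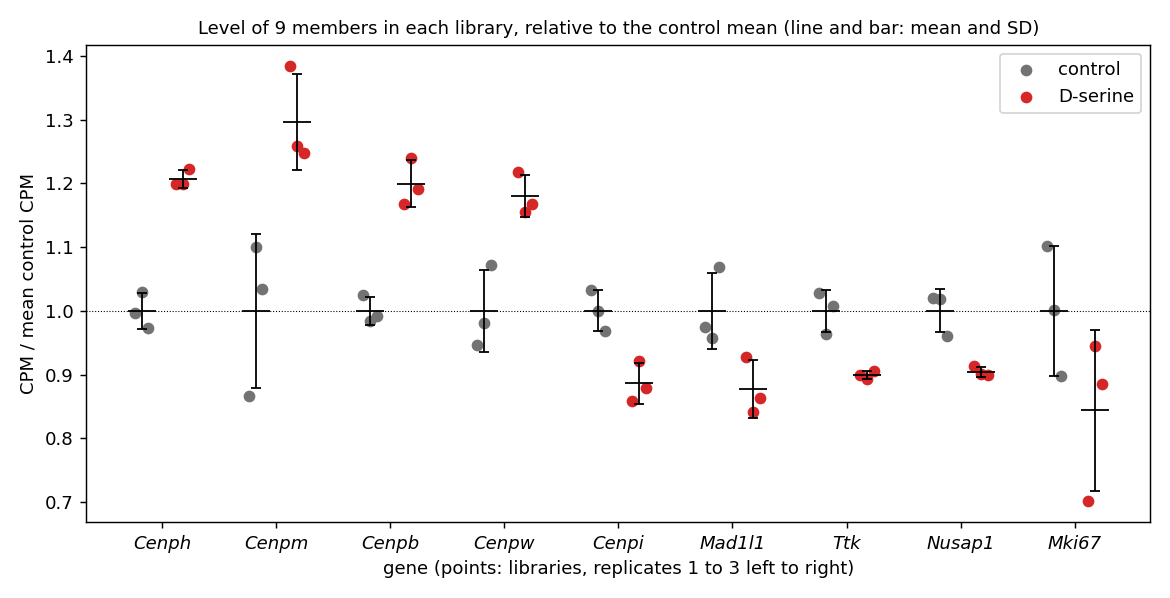
Level of 9 members in each of the 6 libraries, as CPM divided by the control mean of the gene (y axis), with the mean and SD of each group. D-serine libraries lie above all control libraries for Cenph, Cenpm, Cenpb and Cenpw and below them for Cenpi, Mad1l1, Ttk and Nusap1, while the groups overlap for Mki67, whose lowest library is D-serine replicate 1.

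Genes whose products share a subcomplex thus had values of either sign, and the ratio of their counts per kb of exon, which does not depend on how libraries are scaled, was compared. The 5 ratios were chosen after the values were seen, each with genes of positive log2 fold change over genes of negative log2 fold change. A higher ratio with D-serine was thus set by the choice, and the ratios are given as a description with no test. Cenph over Cenpi was 5.18, 5.53 and 5.40 in the vehicle libraries and 7.49, 6.99 and 7.47 in the D-serine libraries. The 3 D-serine ratios lay together, well above the 3 control ratios. Cenpm over Cenpk, from the same complex, was 0.532 ± 0.060 in control and 0.693 ± 0.0039 with D-serine (SD, n = 3 each). Cenpn over Cenpl was 8.55 ± 0.405 and 11.2 ± 1.46, and Cenpw over Cenpt was 1.64 ± 0.166 and 1.97 ± 0.098. In the NDC80 complex, the geometric mean of Spc24 and Spc25 over that of Ndc80 and Nuf2 was 0.251 ± 0.0065 in control and 0.283 ± 0.0020 with D-serine. In all 5 ratios the groups did not overlap, and in each the numerator genes are shorter than the denominator genes, from 1239 against 3692 bases for Cenph and Cenpi to 1512 against 1767 bases for Cenpw and Cenpt. With each library's trend on exonic length removed, the log2 fold changes were 0.20 for Cenph and -0.16 for Cenpi. They were 0.30 for Cenpm and -0.029 for Cenpk, 0.10 for Cenpn and -0.24 for Cenpl, and 0.18 for Cenpw and -0.067 for Cenpt. In the NDC80 complex they were 0.060 for Spc24, 0.078 for Spc25, -0.088 for Ndc80 and -0.051 for Nuf2. The part of length in these ratios was not tested.

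**Figure D3:**
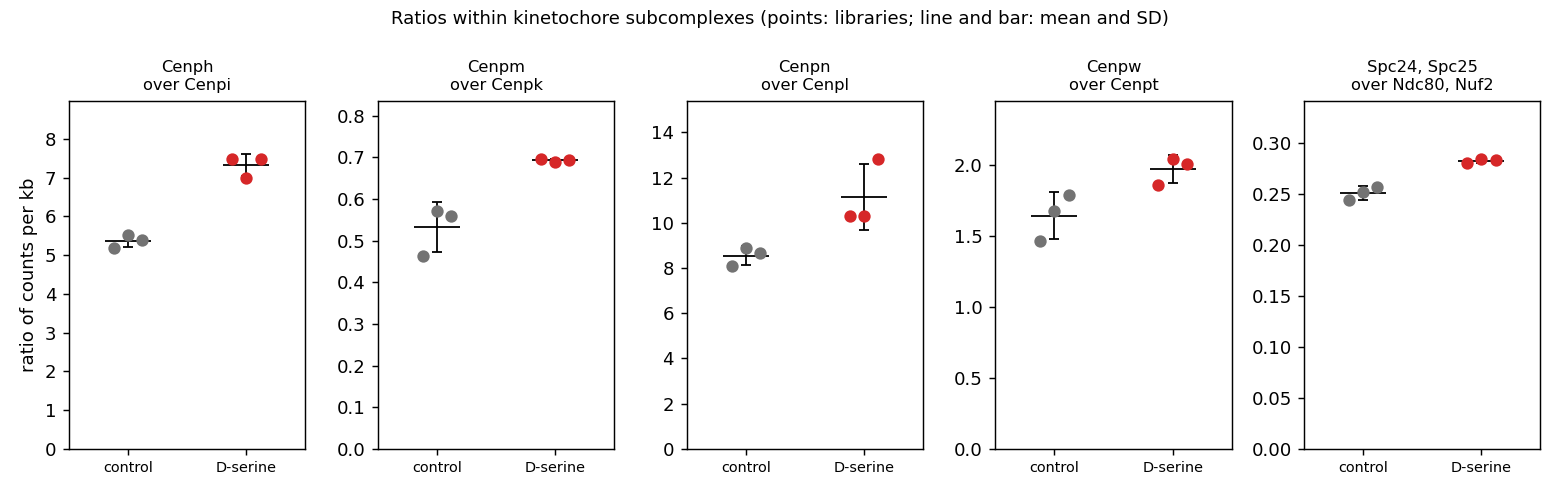
Ratio of counts per kb of exon between genes of the same kinetochore subcomplex (y axis, from 0) in 3 control and 3 D-serine libraries, with the mean and SD of each group. All 5 panels show D-serine libraries above all control libraries, from 5.37 to 7.32 on average for Cenph over Cenpi. This direction was set by the choice of genes.

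The NDC80 genes themselves did not differ beyond the threshold. Spc24, at 33.5, 35.3 and 37.4 CPM under vehicle and 37.6, 40.0 and 38.4 CPM under D-serine, had a log2 fold change of 0.13 (edgeR adjusted p = 0.190). Nuf2, with the highest level per length of the 4, was at 186 ± 2.63 CPM under vehicle and 181 ± 4.38 CPM under D-serine (SD, n = 3 each), at a log2 fold change of -0.036 (adjusted p = 0.606). None of the 4 had an unadjusted p under 0.05 in edgeR, and none was called by DESeq2 or limma-voom. The other 4 CENP genes encode proteins outside the constitutive inner kinetochore, among them the kinesin CENP-E and the large coiled-coil protein CENP-F of the outermost layer. All 4 had negative values, none was called by edgeR (2 at an unadjusted p under 0.05), DESeq2 called Cenpf alone and limma-voom none. Cenpf, the longest of them at 11122 bases, was at 434, 391 and 360.0 CPM under vehicle and 319, 368 and 346 CPM under D-serine (log2 fold change -0.20, edgeR adjusted p = 0.0734). The groups overlapped, and D-serine replicate 1 was the lowest library. The log2 fold change was -0.15 (edgeR adjusted p = 0.0665) without that library, -0.12 (adjusted p = 0.286) without control replicate 1 and -0.25 (adjusted p = 0.0352) without D-serine replicate 2.

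Of the 7 checkpoint genes, 4 had negative and 3 positive values, and none passed the threshold in edgeR. At an unadjusted p under 0.05 there were 3, all lower, Mad1l1, Ttk and Bub1b, and DESeq2, which called 13.5% of the 11821 genes it gave an adjusted p, called these 3, while limma-voom, with 9.43%, called none. Mad1l1 encodes the protein that recruits MAD2 to unattached kinetochores. It gave 76.2, 74.9 and 83.6 CPM under vehicle and 72.6, 65.8 and 67.6 CPM under D-serine, without overlap (log2 fold change -0.19, SE 0.0575, edgeR adjusted p = 0.0557). Ttk encodes the kinase MPS1 at the head of the checkpoint. It was at 75.1, 70.4 and 73.7 CPM under vehicle and at 65.8, 65.3 and 66.2 CPM under D-serine (log2 fold change -0.15, adjusted p = 0.0613). The 3 D-serine libraries were within 1 CPM of each other, below all control libraries. Bub1b, which encodes BUBR1 of the mitotic checkpoint complex, had a log2 fold change of -0.12 (adjusted p = 0.0761). Bub3, the checkpoint gene with the highest level per length, was at 266 ± 4.63 CPM under vehicle and 266 ± 15.6 CPM under D-serine. Cdc20, the target of the checkpoint, and Mad2l1 had log2 fold changes of 0.067 and 0.088 (adjusted p = 0.448 and 0.198). Ttk and Bub1b are named after their values were seen.

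The chromosomal passenger complex, which corrects wrong attachments, is built of Aurkb, Incenp, Birc5 and Cdca8, and is described with the cohesin protector Sgol1. None of the 5 was called by edgeR, DESeq2 or limma-voom, and Cdca8 alone had an unadjusted p under 0.05. Cdca8 was at 150.0, 150.3 and 150.8 CPM under vehicle and at 149, 136 and 134 CPM under D-serine (log2 fold change -0.11, edgeR adjusted p = 0.163), so that D-serine replicate 1 lay close to the controls and the other D-serine libraries below them. Without D-serine replicate 1 its log2 fold change was -0.16 and its adjusted p 0.0103. The mitotic entry genes Cdk1, Cdc25b, Cdc25c, Plk1, Aurka and Foxm1 gave no call in edgeR, DESeq2 or limma-voom and 1 unadjusted p under 0.05, of Cdc25b, an activating phosphatase of CDK1 (log2 fold change -0.16, adjusted p = 0.125). Cdk1, the mitotic kinase, was at 277 ± 11.7 CPM under vehicle and 285 ± 10.8 CPM under D-serine (SD, n = 3 each). Foxm1, the transcription factor of many late cell cycle genes, had a log2 fold change of -0.075 (adjusted p = 0.409).

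All 4 spindle assembly genes lay lower in every D-serine library than in any control library, by small amounts and with no call in edgeR. Of all tested genes, 16.6% lay lower without overlap. There were 3 at an unadjusted p under 0.05, Nusap1, Hmmr and Tpx2, where 14.4% of all genes were lower at that p. DESeq2, with 13.5% of genes called, called Nusap1 and Hmmr, and limma-voom none. Nusap1, which encodes a microtubule-bundling protein, gave 138 CPM in control replicates 1 and 2, 130.1 in control replicate 3, and 124, 122 and 122 CPM in the D-serine libraries (log2 fold change -0.14, SE 0.0435, edgeR adjusted p = 0.0535). It shares 208 exonic bases, 7.03% of its length, with the exons of Oip5, which runs the other way, and its counts are uncertain if strand was not used in counting. Prc1, which crosslinks the antiparallel microtubules of the midzone, was at 212 ± 3.90 CPM under vehicle and 200.1 ± 2.21 CPM under D-serine (SD, n = 3 each), at a log2 fold change of -0.084 (adjusted p = 0.190). The genes of separase (Espl1), its inhibitor securin (Pttg1) and of cytokinesis (Anln, Ect2, Racgap1) all had negative values with no call in edgeR or limma-voom. DESeq2 called Espl1, the 1 gene of these at an unadjusted p under 0.05, which was at 155, 152 and 143 CPM under vehicle and 124, 139.9 and 139 CPM under D-serine (log2 fold change -0.16, edgeR adjusted p = 0.0769). D-serine replicate 1 was its lowest library, and without it the log2 fold change was -0.10 (adjusted p = 0.0998).

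Levels of different genes were compared per kb of exon. Racgap1, a GTPase-activating protein of the central spindle, had the highest mean of all members, 240 CPM per kb over the 6 libraries, followed by the proliferation antigen gene Mki67 at 145 and Bub3 at 130. The lowest were Cenpl at 3.44 and Cenpo at 2.47 CPM per kb. The median was 17.1 CPM per kb in the inner kinetochore genes and 43.4 in the members that are not CENP genes, and the highest CENP gene was Cenph at 60.8, the tenth of all members. The level per length and the log2 fold change were hardly related across the 51 genes (Spearman's rho -0.087, a description across genes measured in the same libraries). Of the members, 6 share exonic bases with another gene of the table, the largest share being 43.3% of Cenpu (Primpol) and 24.1% of Cenpo (Adcy3).

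Exonic length moved with the fold change. Across the 51 members the log2 fold change and the length gave a Spearman's rho of -0.586, and across all 13366 tested genes one of -0.291. With D-serine replicate 1 left out they were -0.326 and -0.147. Genes in these correlations share libraries and are not independent, and no p is given. Among the 18 members under 2000 bases, 10 had positive values, with a median of 0.078. Over all 4082 tested genes of that length, 67.1% were positive, with a median of 0.069. Among the 33 longer members 8 had positive values, with a median of -0.071. Over the 9284 longer genes, 44.7% were positive, with a median of -0.021. In both classes the share of positive values was thus smaller in the members than in all genes, which was not tested. Mki67, at 10075 bases, shows how far 1 library can set a value. It gave 1744, 1586 and 1421 CPM under vehicle and 1113, 1496 and 1402 CPM under D-serine (log2 fold change -0.24, SE 0.0911, edgeR adjusted p = 0.103), with the lowest library being D-serine replicate 1. Without that library the log2 fold change was -0.13 (adjusted p = 0.108), and without D-serine replicate 2 it was -0.33 (adjusted p = 0.0317). Control libraries moved the value too. Without control replicate 1 it was -0.17 (adjusted p = 0.341), and without control replicate 3 it was -0.32 (adjusted p = 0.0804).

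With each library's smooth trend on exonic length removed, 9 members passed the edgeR threshold, 3 higher and 6 lower, where 15.3% of all genes did (7.65% higher and 7.63% lower). As the slopes on length lay apart between control and D-serine libraries, this also removes a length-related difference between the groups. The higher genes were again Cenph (log2 fold change 0.20, adjusted p = 0.0070), Cenpm (0.30, adjusted p = 0.0086) and Cenpb (0.25, adjusted p = 0.0023). The lower genes were the checkpoint genes Mad1l1 (-0.20, adjusted p = 0.0115), Ttk (-0.15, adjusted p = 0.0215) and Bub1b (-0.11, adjusted p = 0.0280), with Cdca8 (-0.16, adjusted p = 0.0053), Nusap1 (-0.15, adjusted p = 0.0094) and Hmmr (-0.12, adjusted p = 0.0317). Cenpf, at -0.044 (adjusted p = 0.480), and Mki67, at -0.11 (adjusted p = 0.105), moved toward 0. The Spearman's rho with length over the members was then -0.194. The median log2 fold change was then -0.045 over the members and 0.0040 over all tested genes. It was 0.027 over the CENP genes and -0.059 over the other members.

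**Figure D4:**
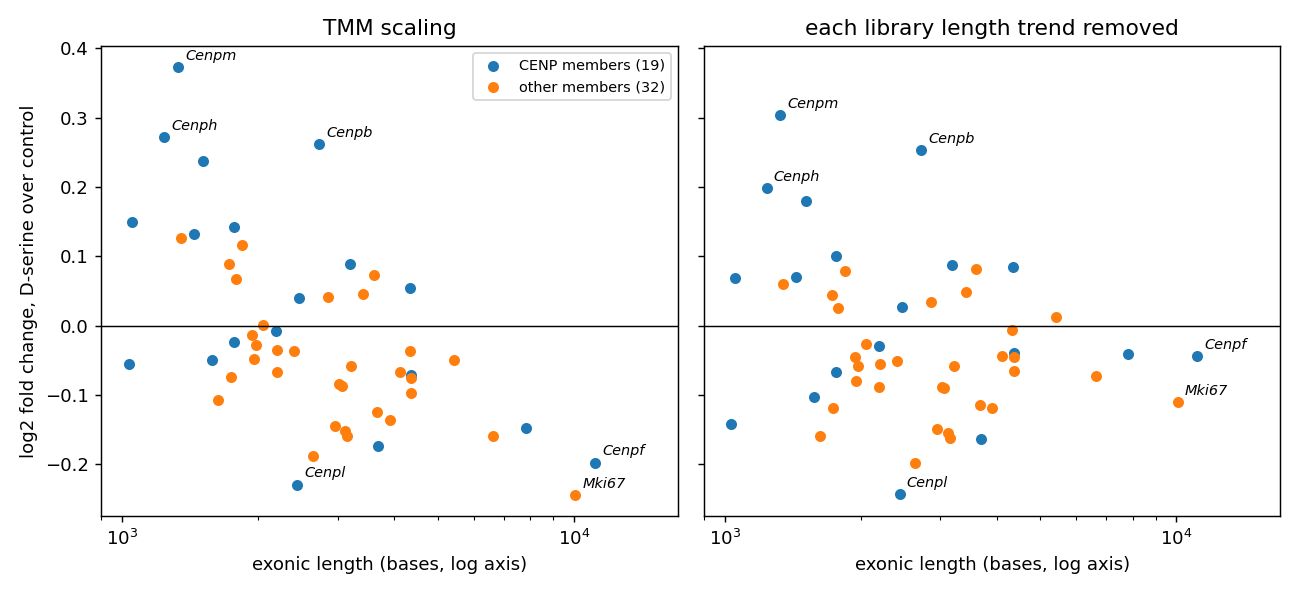
Log2 fold change of D-serine over control (y axis) against exonic length (x axis, log scale) for the 19 CENP members and the other 32, on the left with TMM scaling and on the right with each library's length trend removed. Spearman's rho is -0.586 on the left and -0.194 on the right, and Cenpm, Cenph and Cenpb lie highest in both panels.

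Promoter sequences were taken from RefSeq (GRCm38.p6) as windows of 300 bases, from 250 before to 50 after a transcript start, and matched 45 of the 51 members. The 6 not matched were Aurkb, Cdc25c, Foxm1, Incenp, Spc24 and Tpx2. Searched on both strands were TTTGAA and TTCGAA, cores of the CHR element bound by the MuvB complexes of late cell cycle genes, CCAAT, the box bound by NF-Y, and GCGGGAA, a core of E2F sites. None of these contains another. The windows of the 3 genes that rose and of 2 checkpoint genes, Ttk and Bub1b, are shown for the motifs they hold, and that of Nusap1 as one with no match. Matches on either strand are in capitals.
Cenph, chr13:100775850-100776149, minus strand: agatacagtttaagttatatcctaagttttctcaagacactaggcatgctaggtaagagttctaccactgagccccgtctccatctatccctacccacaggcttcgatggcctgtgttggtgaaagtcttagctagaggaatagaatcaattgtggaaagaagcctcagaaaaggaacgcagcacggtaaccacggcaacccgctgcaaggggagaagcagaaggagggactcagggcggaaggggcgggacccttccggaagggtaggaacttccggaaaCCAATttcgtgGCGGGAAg
Cenpm, chr15:82244287-82244586, minus strand: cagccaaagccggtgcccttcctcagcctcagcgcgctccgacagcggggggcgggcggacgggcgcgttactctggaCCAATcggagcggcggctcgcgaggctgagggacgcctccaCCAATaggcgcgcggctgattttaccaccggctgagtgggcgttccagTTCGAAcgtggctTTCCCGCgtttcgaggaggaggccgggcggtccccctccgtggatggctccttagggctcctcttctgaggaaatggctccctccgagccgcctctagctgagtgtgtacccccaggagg
Cenpb, chr2:131180018-131180317, minus strand: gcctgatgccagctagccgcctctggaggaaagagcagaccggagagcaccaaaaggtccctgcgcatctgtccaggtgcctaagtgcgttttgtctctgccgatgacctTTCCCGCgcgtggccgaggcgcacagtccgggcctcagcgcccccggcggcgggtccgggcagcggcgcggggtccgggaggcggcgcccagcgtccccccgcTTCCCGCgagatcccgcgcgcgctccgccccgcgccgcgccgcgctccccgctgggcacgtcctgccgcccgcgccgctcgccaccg
Ttk, chr9:83834439-83834738, plus strand: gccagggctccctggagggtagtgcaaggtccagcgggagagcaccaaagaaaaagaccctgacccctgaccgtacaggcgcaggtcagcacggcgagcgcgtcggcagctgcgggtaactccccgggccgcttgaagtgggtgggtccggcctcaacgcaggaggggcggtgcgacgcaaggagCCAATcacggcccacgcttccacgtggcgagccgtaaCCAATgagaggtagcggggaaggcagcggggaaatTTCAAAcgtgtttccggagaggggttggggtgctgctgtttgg
Bub1b, chr2:118597961-118598260, plus strand: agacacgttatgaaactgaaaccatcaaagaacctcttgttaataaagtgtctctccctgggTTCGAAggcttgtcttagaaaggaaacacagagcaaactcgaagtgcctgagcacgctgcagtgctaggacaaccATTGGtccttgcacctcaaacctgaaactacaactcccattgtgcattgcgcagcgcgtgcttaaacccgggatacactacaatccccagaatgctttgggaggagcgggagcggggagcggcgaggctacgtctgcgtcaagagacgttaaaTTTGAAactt
Nusap1, chr2:119618048-119618347, plus strand: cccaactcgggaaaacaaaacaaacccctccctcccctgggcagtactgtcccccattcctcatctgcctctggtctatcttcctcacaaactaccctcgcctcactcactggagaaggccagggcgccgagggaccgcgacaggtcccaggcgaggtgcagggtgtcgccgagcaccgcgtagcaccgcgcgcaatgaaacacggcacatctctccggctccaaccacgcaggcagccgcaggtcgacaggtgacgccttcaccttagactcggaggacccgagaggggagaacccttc
The 2 windows of Mad1l1 hold no match either, and Cenpm holds all of the motifs. Counted from the transcript start, GCGGGAA or its complement begins at base 43 in Cenph, at -70 in Cenpm and at -140 and -37 in Cenpb. The CHR core begins at -83 in Cenpm, at 8 in Ttk and at -188 and 41 in Bub1b. CCAAT begins at 32 in Cenph, at -172 and -131 in Cenpm, at -65 and -28 in Ttk and, on the reverse strand, at -113 in Bub1b.

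The CENP genes and the other members differed in these letters. GCGGGAA was found in 8 of 19 CENP genes (42.1%) and in 0 of 26 other members, against 5.29% of the 27025 genes of the promoter table and 4.6% of its 32851 windows. The holders were Cenpb, Cenpc1, Cenph, Cenpk, Cenpl, Cenpm, Cenpn and Cenpo. The promoter table also includes genes that were not tested here, while all members were tested. Among tested genes 985 held GCGGGAA and 9118 did not, a larger share than in the whole promoter table. A CHR core was found in 20 of the 26 other members (76.9%) and in 6 of the 19 CENP genes (31.6%), against 21.7% of genes and 19.2% of windows. CCAAT was found in 69.2% and 68.4%, against 41.1% of genes and 37.4% of windows, and both elements together in 18 of 26 and 6 of 19, against 8.61% of genes and 7.52% of windows. All 3 genes that rose hold GCGGGAA, but the 8 holders ran from -0.23 (Cenpl) to 0.37 (Cenpm) in log2 fold change, with a median of 0.12. The 21 members with CHR and CCAAT and no GCGGGAA had a median of -0.066. Over all 985 tested genes with GCGGGAA the median was -0.0080 and 12.4% were called, 5.69% as higher, beside 9.50% and 4.69% of the 9118 tested genes without it. The motifs were chosen with the members' values known, a match does not show a bound site, and no test was made.

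**Figure D5:**
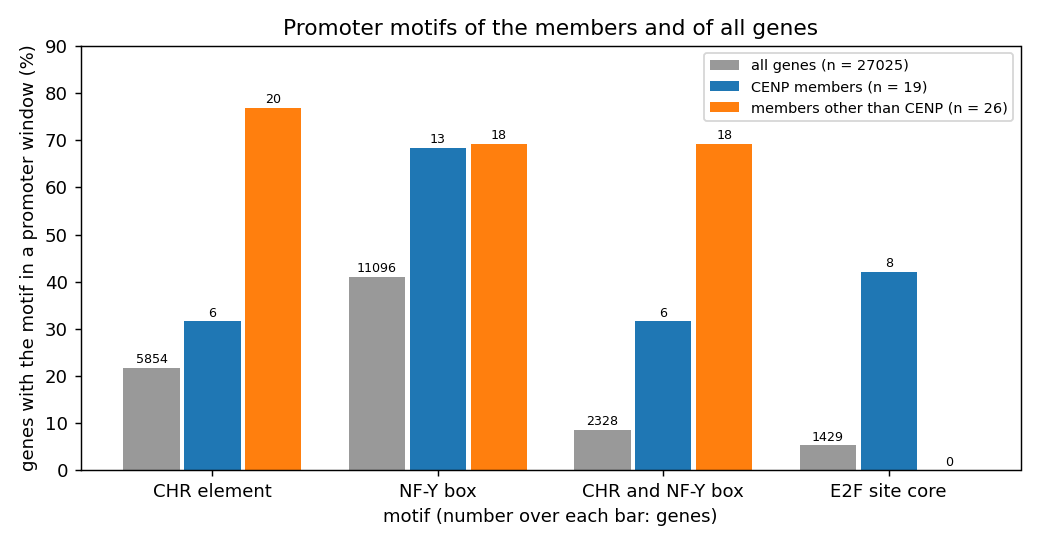
Share of genes (y axis, percent) with each motif in a 300-base promoter window, for all 27025 genes of the promoter table, 19 CENP members and 26 other members, with the number of genes over each bar. The E2F site core is in 8 CENP members and 0 of the others, and the CHR element in 20 of the others and 6 CENP members.

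Of 100 other genes of chromosome segregation, all tested, 11 passed the threshold in edgeR (11%), close to the 9.74% of all genes, with 7 higher and 4 lower (7 and 2 under upper quartile scaling, 9 and 2 with library totals). Among the higher were Itgb3bp, which encodes the inner kinetochore protein CENP-R (log2 fold change 0.38, edgeR adjusted p = 0.0320), the B-type cyclin Ccnb2 (0.36, adjusted p = 0.0142) and 3 of the 8 subunits of the microtubule-branching augmin complex, Haus1 (0.44), Haus4 (0.28) and Haus8 (0.28, highest adjusted p of the 3 = 0.0354). Anapc4, a subunit of the anaphase-promoting complex, rose by 0.19 on the log2 scale. The lower were Nsl1 of the MIS12 complex, which links the inner kinetochore to NDC80 (-0.22, adjusted p = 0.0142), the condensin subunits Ncapd2 (-0.21) and Ncaph (-0.15), and Wapal, which releases cohesin (-0.17, adjusted p = 0.0315). The eleventh gene, with the largest p, was Arpp19. With the length trend removed, 14 of the 100 passed in edgeR (8 higher and 6 lower, where 15.3% of all genes passed). The 11 genes were among them except Wapal, the longest of the 11 at 6351 bases, whose log2 fold change was then -0.087 (adjusted p = 0.0710). Leaving out control replicate 1 or 2 left 0 of the 100 past the edgeR threshold (0.921% and 0.501% of all genes), control replicate 3 or D-serine replicate 3 left 2 (3.34% and 2.15%), and D-serine replicate 1 or 2 gave 13 (12.5% and 11.6%). The median log2 fold change of the 100 genes was -0.0022.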

How the data were processed

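The mRNA of 6 Neuro2a libraries, 3 control and 3 D-serine, was sequenced from stranded TruSeq libraries, per the labels' protocols. The deposited values are raw counts, 1 row a gene, beside the summed length of its exons. The submitters' processing notes name Trim Galore, HISAT2 and featureCounts. Versions and the strand setting are not given in the sources used here. Columns with the word vehicle were assigned to the control samples of the same number.

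The counts were tested with edgeR 4.0.16 in R 4.3.3 (filterByExpr, TMM scaling, quasi-likelihood F test, no covariate, Benjamini-Hochberg adjustment over 13366 genes, two-sided, threshold 0.05), a script first tested on simulated data. SE is the log2 fold change divided by the square root of F. CPM are counts over the TMM-adjusted library size. The length trend was a natural spline with 5 degrees of freedom per library, used as an offset centred on 0. The alternatives were DESeq2 1.42.0, limma-voom (limma 3.58.1), other scalings and filters, a replicate block and leaving out each library. Exon overlap was computed with bedtools 2.31.1.

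The members, role lists and list of other segregation genes were chosen with earlier results of these data known. Values are given for every member past the threshold and, in each role, for the member with the highest level per length and the one with the smallest p. Further members are named to spell out small counts, and as chosen after their values were seen. Values of some single marker genes are not reported here.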

Additional observations from a re-analysis of the deposited data

How the results depend on the processing

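The number of members past the threshold was 3, all higher, and became 10 with the DESeq2 Wald test (3 higher and 7 lower, with 13.5% of all genes called), 8 with no filter on low counts (4 and 4, with 10.6%), and 9 (3 and 6) with the length trend removed, alone (15.3%), with the replicate block (14.2%), or with D-serine replicate 1 left out (13.8%), the last chosen after seeing the data. Over the 6 fits that left out 1 library it ran from 1 (0.921% and 0.501% of genes) to 9 (12.5%). Cenph was past the threshold in all 17 alternatives, Cenpb in 15 and Cenpm in 12. The median log2 fold change of the members was -0.018 under upper quartile scaling and -0.019 with library totals. In both of these settings the median over all genes was 0.035, against 0.0053 in the main fit. With 1 library left out, the members' median ran from -0.053 to -0.024, so that it stayed negative throughout. Over all genes 2043 passed with the length trend removed, and from 68 to 1699 with 1 library left out. For the other segregation genes that range was 0 to 13.

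The replicate block left 298 genes over the whole table (2.23%), 1 of the other segregation genes and 2 members, Cenph and Cenpb, with Cenpm at an adjusted p of 0.0544. The deviations of same-numbered libraries from their group means had correlations of -0.069, 0.020 and -0.019. Those of libraries with different numbers ran from -0.076 to 0.088. These values cannot tell whether same-numbered libraries shared a culture or a day. Bub3, at 0.00048, changed sign to -0.0037 with DESeq2, -0.00072 with limma-voom, -0.0028 with DESeq2 size factors, -0.0011 with the replicate block, -0.027 with the length trend removed, -0.028 with that and the replicate block, -0.055 with it and D-serine replicate 1 left out and, with 1 library left out, lay between -0.046 and 0.037, at -0.013 without control replicate 2. It never passed the threshold. The cause of these changes was not tested.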
